A study of Mus musculus with 9 samples.

Results

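Mki67, Top2a and Cdk1, 3 genes that dividing cells transcribe, were followed across the lungs of a mouse fibrosis study. They were chosen by gene symbol among the 1908 genes that carry a name, and each was measured by 1 of the 41345 probe sets on the array. Names come from the authors' tables of changed probe sets. A named gene had therefore been listed as changed in at least 1 comparison, and for these 3 genes that was bleomycin against vehicle and homoharringtonine against vehicle. Their differences in those comparisons are given as a description and are not independent support for a change. None of the 3 was listed for homoharringtonine against bleomycin, where the smallest fold listed, 1.59, was larger than that of any of the 3.

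The arrays were made from total RNA of whole lung of male C57BL/6J mice, 3 arrays per group. All mice were 11 weeks old at sampling. One group was given bleomycin, an antibiotic that cuts DNA and scars the lung, at 2 U/kg into the trachea at 8 weeks of age, and then homoharringtonine, a plant alkaloid that blocks translation elongation, at 0.545 mg/kg into the peritoneum. These injections began after 5 days and were given 2 times a week for 15 days. A second group was given bleomycin and is labelled with no homoharringtonine. The third is labelled vehicle-treated. The protocol, written once for all mice, names PBS as the alternative to bleomycin and a vehicle as the alternative to homoharringtonine, and does not set out which of these each group received. The labels do not say whether an array held RNA of 1 mouse or of several, so the p-values measure the spread between these arrays. In whole lung, fewer dividing cells and less RNA per dividing cell cannot be told apart. The lung label was checked on surfactant protein Sftpa1, whose log2 signal lay between 10.91 and 11.40 in bleomycin plus homoharringtonine lungs, between 10.18 and 10.69 in bleomycin lungs and between 11.28 and 11.41 in vehicle lungs. Array medians lay between 4.49 and 4.57, and 3 arrays per group limit the precision of every value below.

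Cdk1 is the cyclin-dependent kinase that drives entry into mitosis, in complex with A-type and B-type cyclins. Top2a encodes topoisomerase II alpha, which passes DNA strands through each other and untangles chromosomes before they separate. Mki67 encodes Ki-67, a protein that coats mitotic chromosomes and is the usual stain for cycling cells. In resting cells these genes are kept low, and their transcripts build up late in the cell cycle. In the adult lung few cells divide at rest, while after injury epithelial, endothelial, mesenchymal and immune cells can all enter the cycle.

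The promoters of the 3 genes are shown because genes of this phase of the cycle are known for CCAAT boxes and for a cell cycle homology element, of the letters TTTGAA or, in a variant form, TTCGAA. Each sequence runs from 250 bases before the gene's start to 50 bases after it, on the gene's own strand, as given by RefSeq on GRCm38.p6. All 3 genes lie on the minus strand, and the windows are chr7:135716330-135716629 for Mki67, chr11:99024140-99024439 for Top2a and chr10:69352863-69353162 for Cdk1. Capitals mark the CCAAT box, the element TTTGAA and the variant form TTCGAA on either strand, so a motif of the other strand appears as its reverse complement.
Mki67: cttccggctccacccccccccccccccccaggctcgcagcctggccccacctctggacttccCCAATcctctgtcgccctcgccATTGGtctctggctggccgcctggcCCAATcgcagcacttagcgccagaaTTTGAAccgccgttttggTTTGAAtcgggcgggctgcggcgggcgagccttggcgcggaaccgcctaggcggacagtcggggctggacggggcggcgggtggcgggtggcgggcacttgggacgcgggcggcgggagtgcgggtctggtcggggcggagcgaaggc
Top2a: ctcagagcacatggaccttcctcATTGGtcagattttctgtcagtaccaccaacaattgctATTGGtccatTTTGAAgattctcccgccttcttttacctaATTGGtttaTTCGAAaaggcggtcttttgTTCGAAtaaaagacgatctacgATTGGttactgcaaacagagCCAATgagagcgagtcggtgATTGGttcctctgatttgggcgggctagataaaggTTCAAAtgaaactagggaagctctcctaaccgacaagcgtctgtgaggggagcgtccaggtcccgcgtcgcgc
Cdk1: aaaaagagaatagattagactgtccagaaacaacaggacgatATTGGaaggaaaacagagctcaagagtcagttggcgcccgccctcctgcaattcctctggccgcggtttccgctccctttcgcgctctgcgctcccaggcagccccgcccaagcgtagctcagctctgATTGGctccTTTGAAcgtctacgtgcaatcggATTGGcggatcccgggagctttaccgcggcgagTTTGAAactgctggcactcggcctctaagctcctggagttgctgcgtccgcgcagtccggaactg

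The Mki67 window held 3 CCAAT and 2 TTTGAA. The Top2a window held 6 CCAAT, 2 TTTGAA and 2 TTCGAA, and the Cdk1 window 3 CCAAT and 2 TTTGAA. No marked motif overlapped another. In Cdk1 the TTTGAA nearest the start began 15 bases before it, in Top2a, on the opposite strand, 23 bases before it, and in Mki67 98 bases before it. Of 32851 promoter windows of the same length, 3.37% held at least 3 CCAAT and 19.2% held TTTGAA or TTCGAA, while 2.31% held at least 2 CCAAT together with either element. These are matches of letters and do not show that a factor bound there.

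Mki67 had nearly the same mean in bleomycin plus homoharringtonine lungs and in bleomycin lungs, and lower values in all vehicle lungs. Its probe set covers chromosome 7 from 135689788 to 135716379 on the minus strand with 29 probes, as positioned in the authors' tables. No source used here names the build of these positions. The log2 signals were 7.29, 6.73 and 7.20 in bleomycin plus homoharringtonine lungs, 6.76, 7.24 and 7.24 in bleomycin lungs, and 6.14, 5.77 and 6.24 in vehicle lungs, in the order of replicates 1 to 3. The first and second of these groups overlapped almost completely, and no array of either reached down to the vehicle range. The means were 7.07 ± 0.30 with homoharringtonine, 7.08 ± 0.28 with bleomycin and 6.05 ± 0.25 with vehicle (SD, n = 3 each).

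Top2a had its highest values with homoharringtonine. Its probe set spans chromosome 11 from 98992943 to 99024189 on the minus strand with 33 probes. The log2 signals were 6.66, 6.07 and 6.62 in bleomycin plus homoharringtonine lungs, 5.81, 6.04 and 6.23 in bleomycin lungs, and 5.04, 5.07 and 5.33 in vehicle lungs. Replicates 1 and 3 with homoharringtonine lay above all bleomycin arrays, and replicate 2 lay between bleomycin replicates 2 and 3, so those groups overlapped. All vehicle arrays lay below both. The means were 6.45 ± 0.33 with homoharringtonine, 6.03 ± 0.21 with bleomycin and 5.15 ± 0.16 with vehicle (SD, n = 3 each).

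Cdk1 spread the most among arrays of a group. Its probe set spans chromosome 10 from 69336635 to 69352938 on the minus strand with 19 probes. The log2 signals were 5.84, 5.02 and 5.75 in bleomycin plus homoharringtonine lungs, 5.23, 5.71 and 5.94 in bleomycin lungs, and 4.22, 4.26 and 4.77 in vehicle lungs. The first and second of these groups overlapped, and vehicle replicates 1 and 2 lay below the array medians. Differences from the vehicle group therefore start from a dim signal, and no detection call was available here. The means were 5.54 ± 0.45 with homoharringtonine, 5.63 ± 0.36 with bleomycin and 4.42 ± 0.31 with vehicle (SD, n = 3 each).

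**Figure D1:**
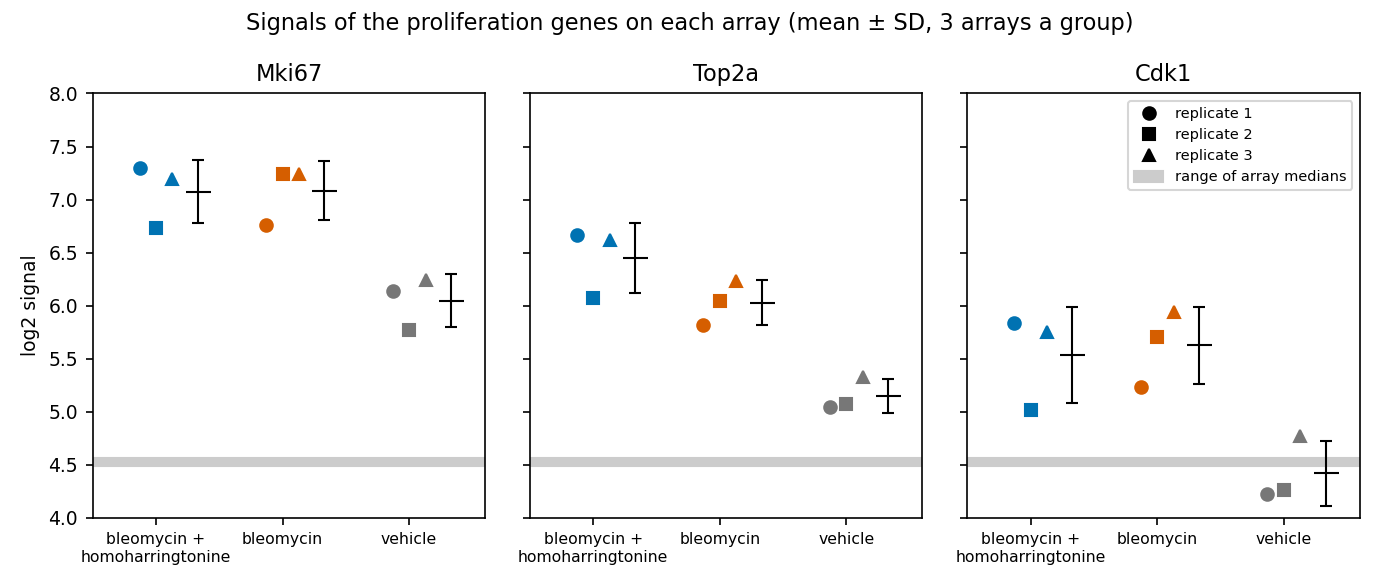
Log2 signal of Mki67, Top2a and Cdk1 (vertical axis) on each of the 9 arrays, by group (horizontal axis). Symbols mark the replicate, the bars the mean ± SD of 3 arrays, and the grey band the range of array medians from 4.49 to 4.57. In all 3 panels the vehicle arrays lie below every other array.

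The comparison of homoharringtonine with bleomycin alone asks whether the drug, given after the injury, lowered these markers. None of the 3 passed the test in either direction. For Mki67 the difference of means was -0.01 (SE 0.20) on the log2 scale, with a 95% interval from -0.47 to 0.45 and an adjusted p of 0.995. In linear terms the signal with homoharringtonine was 0.995 times that with bleomycin, with an interval from 0.723 to 1.37 times. The Cdk1 difference was -0.09 (SE 0.27), with an interval from -0.70 to 0.52 and an adjusted p of 0.94. Its ratio of 0.939 had the widest interval of the 3, from 0.614 to 1.44 times. For Top2a the difference was 0.42 (SE 0.18), 1.34-fold higher with homoharringtonine, with an interval from 0.00 to 0.84 and an adjusted p of 0.443. The tests were limma's moderated tests over all 41345 probe sets with Benjamini-Hochberg adjustment within a comparison, and a call required an adjusted p under 0.05. Top2a, with an unadjusted limma p of 0.0479, was the single member of the 3 under 0.05 before adjustment, as were 11.1% of all probe sets. Of all probe sets 0.0943% were called in this comparison, 0.0556% lower and 0.0387% higher. No member had groups that did not overlap, against 14% of all probe sets (6.19% higher and 7.79% lower).

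A fall in Mki67 of more than 27.7% and in Cdk1 of more than 38.6% lies outside these intervals, while smaller falls do not. For Top2a the lower limit of the interval was 0.0049 on the log2 scale, just above 0. The intervals are not adjusted for the number of probe sets. The direction of the Mki67 and Cdk1 differences is not settled. Mki67 was 0.07 higher with homoharringtonine without bleomycin replicate 2 or without bleomycin replicate 3, 0.16 higher without homoharringtonine replicate 2, and 0.02 higher after quantile normalization. Cdk1 was 0.07 higher without bleomycin replicate 3 and 0.17 higher without homoharringtonine replicate 2. Top2a stayed higher in all 6 fits that left out 1 array, by 0.31 to 0.61. The unadjusted limma p of Top2a in these fits was 0.155, 0.0871 and 0.0326 without bleomycin replicates 1, 2 and 3. It was 0.155, 0.00421 and 0.143 without homoharringtonine replicates 1, 2 and 3. A rise of Top2a is therefore not settled either.

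**Figure D2:**
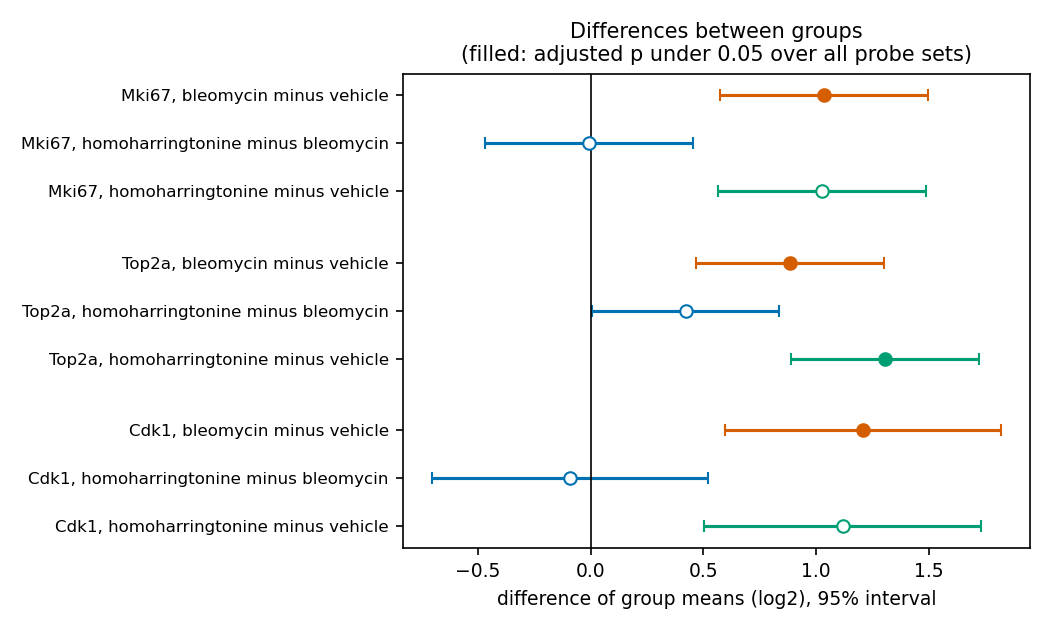
Differences of group means on the log2 scale (horizontal axis) with 95% intervals for each gene and comparison (vertical axis). Filled points passed an adjusted p under 0.05 over all probe sets. The intervals against bleomycin run from -0.47 to 0.45 for Mki67, from -0.70 to 0.52 for Cdk1 and from 0.0049 to 0.84 for Top2a. All those against vehicle lie above 0.

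With bleomycin alone all 3 genes rose over vehicle. Cdk1 was 2.31-fold higher (log2 difference 1.21, SE 0.27, limma adjusted p = 0.031), Mki67 2.05-fold (1.03, SE 0.20, limma adjusted p = 0.0195) and Top2a 1.84-fold (0.88, SE 0.18, limma adjusted p = 0.024). Of all probe sets 3.37% were called higher, and 13.9% had bleomycin arrays that all lay above the vehicle arrays, as the 3 genes did. Since the authors' listing in this comparison gave the genes their names, nothing is read from that count. The median difference of all probe sets was 0.02. The calls rest on the full set of arrays. For Mki67 limma's adjusted p was 0.0705 without vehicle replicate 2, 0.0732 without bleomycin replicate 2 and 0.0679 without bleomycin replicate 3. For Top2a it was 0.0703, 0.0857 and 0.0554 without vehicle replicates 1, 2 and 3, and 0.077 and 0.0799 without bleomycin replicates 2 and 3. For Cdk1 the values in the same order were 0.088, 0.107, 0.0529, 0.0988 and 0.0992. Without bleomycin replicate 1, the lowest bleomycin array for each gene, all 3 remained called, at differences of 1.19, 0.99 and 1.41 for Mki67, Top2a and Cdk1.

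Against vehicle, bleomycin plus homoharringtonine lungs had higher signals of all 3 genes, and Top2a passed the test. Top2a was 2.47-fold higher (log2 difference 1.30, SE 0.18, limma adjusted p = 0.0321). Mki67 was 2.04-fold higher (1.03, SE 0.20) and Cdk1 2.17-fold (1.12, SE 0.27), with limma adjusted p values of 0.0723 and 0.107 that missed the threshold. Their unadjusted p values were 0.00075 and 0.0027, and their 95% intervals ran from 0.57 to 1.49 and from 0.50 to 1.73. Of all probe sets 0.193% were called higher here, and 9.46% had homoharringtonine arrays that all lay above the vehicle arrays, as the 3 genes did. The listing by the authors bears on this comparison too, so nothing is read from that count. The Top2a call was lost with limma adjusted p values of 0.0952, 0.134 and 0.126 without vehicle replicates 1, 2 and 3, of 0.0629 and 0.12 without homoharringtonine replicates 1 and 3, and of 0.0594 when only the 6 arrays of the groups compared were fitted. It was kept without homoharringtonine replicate 2, with a difference of 1.495.

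In the authors' deposited table for bleomycin against vehicle, which lists 2074 probe sets (5.02%), the adjusted p values were 3.84e-05 for Mki67, 0.00546 for Top2a and 3.21e-05 for Cdk1. These come from the LPE test, a local pooled error test that borrows error from probe sets of like signal. In the authors' deposited table for homoharringtonine against vehicle, which lists 294 probe sets (0.711%), they were 0.0296, 0.000403 and 0.00175 in the same order. Mki67 and Cdk1 were thus listed there by the LPE test and missed the threshold with limma. The cut on adjusted p was alike, since the largest value listed there was 0.04999, and the tests differ. The authors' deposited table for homoharringtonine against bleomycin lists 116 probe sets (0.281%), none of them of these genes. The smallest fold listed there was 1.59, and no deposited table lists a fold under 1.5. In that comparison the folds of Mki67, Top2a and Cdk1, in either direction, were 1.01, 1.34 and 1.06. Their absence is therefore not a second test of these genes. In the authors' deposited pathway tables the KEGG cell cycle map, of 123 genes, had 11 listed genes for bleomycin against vehicle, 1 for homoharringtonine against bleomycin and 2 for homoharringtonine against vehicle. The last 2 were Cdk1 and Wee1. The deposited FDR of the map was 0.00575 for bleomycin against vehicle and 0.713 for homoharringtonine against vehicle. The 11 included the cell cycle inhibitors Cdkn1a, Cdkn1b and Cdkn2b, and Rb1, which restrains entry, so that count gives no direction.

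The 3 genes moved together from array to array within the groups. In bleomycin plus homoharringtonine lungs replicate 2 was the lowest array for each gene, by 0.34 below the group mean for Mki67, 0.38 for Top2a and 0.52 for Cdk1. In bleomycin lungs replicate 1 was the lowest for each, by 0.32, 0.22 and 0.40 in the same order. In vehicle lungs replicate 3 was the highest for each, by 0.19, 0.18 and 0.36. Over the 9 arrays, after subtraction of the group means, Pearson's r was 0.986 between Top2a and Cdk1, 0.887 between Mki67 and Cdk1 and 0.862 between Mki67 and Top2a. These describe 9 arrays that share RNA, array and scaling between the genes. With group differences kept in, the values were 0.923, 0.972 and 0.931.

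**Figure D3:**
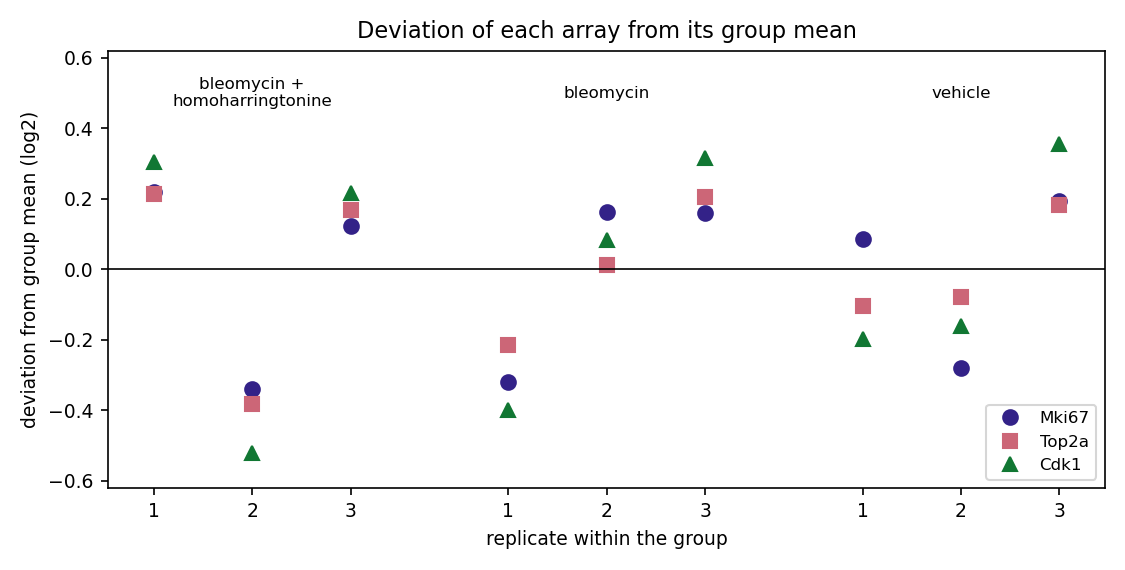
Deviation of each array from its group mean on the log2 scale (vertical axis) for Mki67, Top2a and Cdk1, by group and replicate (horizontal axis). Homoharringtonine replicate 2 and bleomycin replicate 1 lie below 0 for all 3 genes, and vehicle replicate 3 above 0.

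Named genes with the most similar pattern were ranked by their mean r with the 3 genes, among 1499 named genes, with gene models, RIKEN clones, small RNAs and antigen receptor segments set aside. Over the 9 arrays the first 5 were the condensin subunit Ncapg (mean r 0.949), the phosphatase Cdkn3 (0.932), the actin-binding cytokinesis protein Anln (0.932), the CTP synthase Ctps (0.929) and the formin Diaph3 (0.925). The median over the ranked genes was -0.60, and 10 genes exceeded 0.9. The ranked genes, like the 3 members, carry names because the authors listed them as changed. Over the 1908 named genes the median difference of bleomycin from vehicle was -0.67, against 0.02 over all probe sets. With group differences kept in, these values of r are therefore a description and not independent support. Group means followed the same order as for Mki67 in Ctps, with 7.58 in bleomycin plus homoharringtonine lungs, 7.59 in bleomycin lungs and 6.67 in vehicle lungs. Diaph3 had 6.29 with bleomycin plus homoharringtonine, 6.26 with bleomycin and 5.33 with vehicle. When group means were subtracted first, the leading genes were the small GTPase gene Rhoc (0.948), Cdkn3 (0.922), the membrane protein gene Emp1 (0.895), the adaptor gene Sh3pxd2b (0.882) and the cytokine signalling inhibitor Socs3 (0.881), where the median was -0.06. Rhoc shared the array-to-array pattern and not the group pattern. Its means were 7.35 with bleomycin plus homoharringtonine, 8.02 with bleomycin and 7.35 with vehicle. Neither of its differences involving the bleomycin lungs passed the limma test (adjusted p = 0.199 against bleomycin with homoharringtonine, and 0.0552 for bleomycin against vehicle). In the same order of groups Emp1 had 8.30, 9.00 and 8.25, and Sh3pxd2b 6.06, 6.71 and 5.78. For bleomycin against vehicle their limma adjusted p values were 0.0468 and 0.00571, and for homoharringtonine against bleomycin 0.207 and 0.118. Cdkn3 had 5.29, 5.51 and 4.53, and Socs3 6.11, 6.57 and 5.45.

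The wider cell cycle was read from 6 lists of textbook genes. Of their 178 genes 17 had a named probe set, which takes a listed change in some comparison, so the counts describe genes already chosen for a change. For homoharringtonine against bleomycin 0 of the 17 passed the limma test, where 0.0943% of all probe sets did, and 7 were under an unadjusted p of 0.05, where 11.1% of all probe sets were. Their median difference was -0.12, against 0.00 over all probe sets and 0.18 over the 1908 named genes from which they come. For bleomycin against vehicle 10 rose, 2 fell and 5 did not pass, with a median difference of 0.70, against -0.67 over the named genes, and 7.78% of all probe sets were called in either direction. For homoharringtonine against vehicle 3 rose and 14 did not pass, with a median of 0.56, against -0.25 over the named genes, and 0.506% of all probe sets called. All 3 comparisons share groups, so these counts are not separate evidence.

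Genes of mitosis were named in 4 of 42 cases. With bleomycin over vehicle 3 of them rose, where 3.37% of all probe sets were called higher. Anln was 2.39-fold higher (limma adjusted p = 0.00315), Ncapg 1.84-fold (limma adjusted p = 0.0206) and Tpx2, which nucleates spindle microtubules, 1.74-fold (limma adjusted p = 0.0169). The kinetochore gene Spc24 differed by 0.67 on the log2 scale with a limma adjusted p of 0.122. None of the 4 passed for homoharringtonine against bleomycin (0.0943% of all probe sets), with differences from -0.22 to -0.08. At an unadjusted limma p under 0.05 the count was also 0 of 4 (11.1% of all probe sets). The log2 signals of Anln were 5.91, 5.48 and 5.89 in bleomycin plus homoharringtonine lungs, 5.71, 6.08 and 6.16 in bleomycin lungs and 4.70, 4.73 and 4.73 in vehicle lungs. As with the 3 markers, homoharringtonine replicate 2 and bleomycin replicate 1 were the lowest of their groups, and both groups lay clear of the vehicle arrays. Anln also passed for homoharringtonine against vehicle (2.05-fold, limma adjusted p = 0.0363).

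Among 15 partners and regulators of Cdk1, Wee1 was named, the kinase that holds Cdk1 inactive by phosphorylation. Its log2 signals were 6.39, 6.57 and 6.71 in bleomycin plus homoharringtonine lungs, 6.74, 6.59 and 6.57 in bleomycin lungs and 5.50, 5.71 and 5.40 in vehicle lungs. The first and second of these groups overlapped, and the vehicle arrays lay below both. Wee1 rose 2.14-fold with bleomycin over vehicle (limma adjusted p = 0.00222) and 2.03-fold with homoharringtonine over vehicle (limma adjusted p = 0.0205). Against bleomycin alone the homoharringtonine difference was -0.08 (limma adjusted p = 0.867). The cyclin partners of Cdk1 carried no name here and were not analysed.

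Of 14 genes of entry into the cycle, Ccnd1 and Rb1 were named. Cyclin D1 (Ccnd1) rose 1.61-fold with bleomycin over vehicle (limma adjusted p = 0.046). The retinoblastoma gene Rb1, which restrains entry, fell 1.67-fold (limma adjusted p = 0.0105) at the brighter of its 2 probe sets, and the other had a difference of -0.84 with a limma adjusted p of 0.0615. Of 27 replication genes Rrm1, the large subunit of ribonucleotide reductase, was named. It was 1.63-fold higher with bleomycin than with vehicle, at a limma adjusted p of 0.0538. None of these passed in the comparisons with homoharringtonine.

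Inhibitors of the cycle included the 2 list genes with the lowest differences between homoharringtonine and bleomycin. Of 10 genes in that list 4 were named. With bleomycin over vehicle 3 rose and 1 fell, where 3.37% of all probe sets were called higher and 4.42% lower. Cdkn1a, which encodes the p53-induced inhibitor p21, had log2 signals of 8.32, 8.05 and 7.99 in bleomycin plus homoharringtonine lungs, 8.76, 8.65 and 9.34 in bleomycin lungs and 7.58, 7.36 and 7.10 in vehicle lungs. The 3 groups did not overlap, and the homoharringtonine lungs lay between the others. Cdkn1a differed by -0.79 between homoharringtonine and bleomycin, with an unadjusted p of 0.00367 and a limma adjusted p of 0.186. Cdkn2b, which encodes the Cdk4 and Cdk6 inhibitor p15, had 7.08, 6.96 and 7.18 in bleomycin plus homoharringtonine lungs, 7.60, 7.93 and 7.93 in bleomycin lungs and 7.15, 6.93 and 6.76 in vehicle lungs. Its homoharringtonine arrays lay below all bleomycin arrays and overlapped the vehicle arrays, and its difference of -0.75 from bleomycin had a limma adjusted p of 0.0995. Cdkn1b, which encodes p27, fell 1.61-fold with bleomycin over vehicle (limma adjusted p = 0.0272) and was 0.40 higher with homoharringtonine than with bleomycin (limma adjusted p = 0.355). The p53 target Ccng1 rose 1.52-fold with bleomycin (limma adjusted p = 0.0205) and 1.84-fold with homoharringtonine (limma adjusted p = 0.0308), each against vehicle. Its homoharringtonine arrays all lay above the bleomycin arrays, with a difference of 0.27, an unadjusted p of 0.0497 and a limma adjusted p of 0.448, the opposite sign to Cdkn1a. These differences were not tested against those of Mki67, Top2a and Cdk1. Of all probe sets 6.19% had homoharringtonine arrays all above the bleomycin arrays, and 7.79% had them all below.

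Replication-dependent histones were named in 5 of 70 cases, and 2 rose with bleomycin over vehicle, where 3.37% of all probe sets were called higher. Hist1h2ab was 2.65-fold higher (limma adjusted p = 0.0151) and the linker histone Hist1h1c 1.66-fold (limma adjusted p = 0.0107). The others were Hist1h2af, Hist1h2an and Hist1h4n, with differences of 0.69, 0.66 and -0.96 that missed the threshold. Near-identical copies make these values uncertain, and the authors' tables mark 3 of the 5 probe sets as cross-hybridisation type 3, against 0 of the other 12 cell cycle genes. For homoharringtonine against bleomycin 0 of the 5 passed by limma (0.0943% of all probe sets) and 2 were under an unadjusted p of 0.05 (11.1% of all probe sets).

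**Figure D4:**
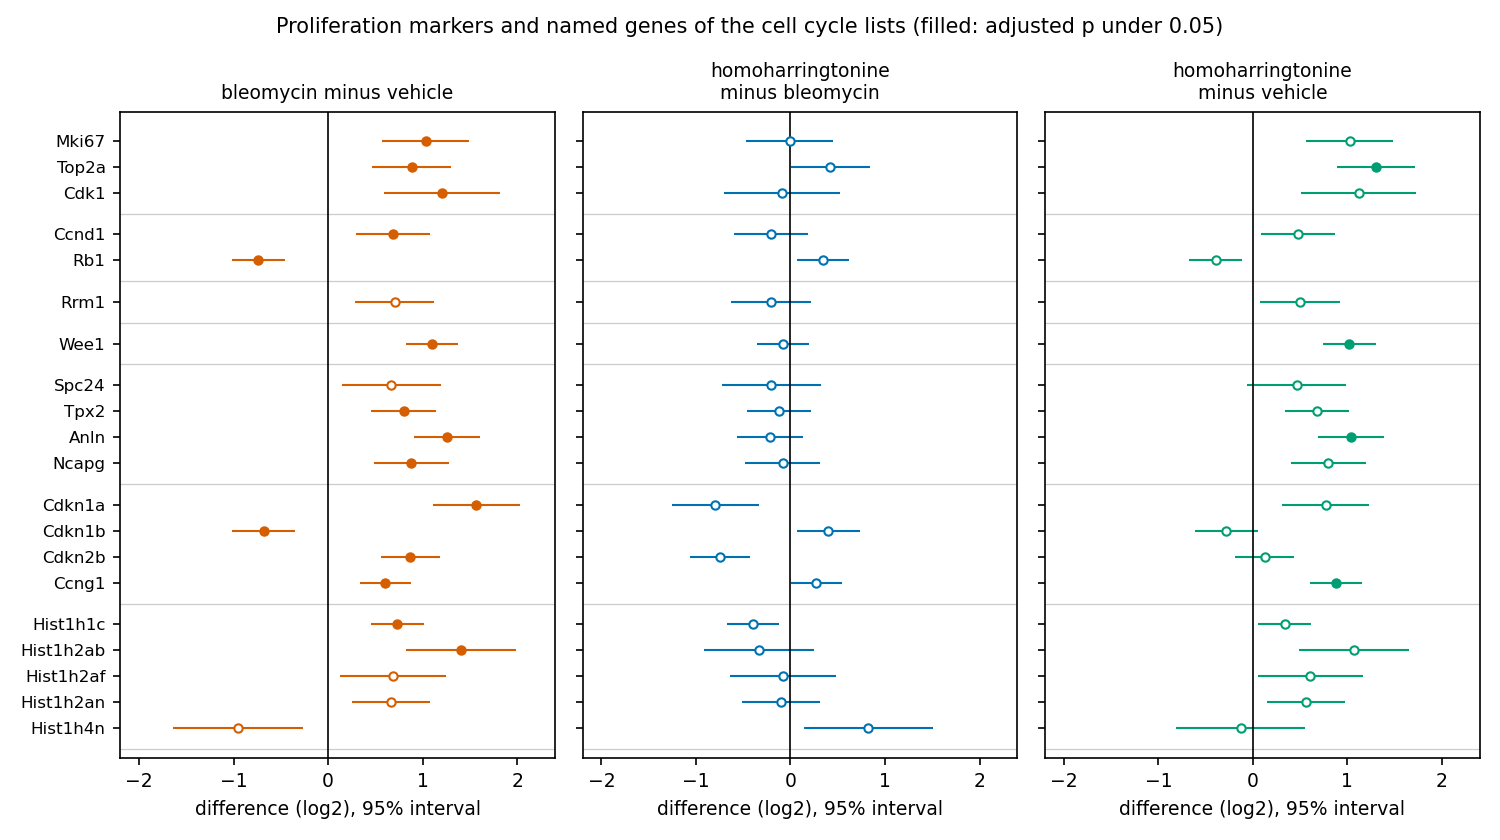
Differences of group means on the log2 scale with 95% intervals (horizontal axes) for Mki67, Top2a, Cdk1 and the 17 named genes of the cell cycle lists (vertical axis), in 3 panels by comparison. Filled points passed an adjusted p under 0.05 over all probe sets. None is filled for homoharringtonine against bleomycin, where Cdkn1a at -0.79 and Cdkn2b at -0.75 lie farthest below 0.

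Markers of the cells that make up the tissue differed between the groups as well. Levels are sums of linear signals over the named genes of each list. For monocyte-derived macrophages (10 of 13 genes named) the sum was 2416 to 3593 in bleomycin plus homoharringtonine lungs, 4709 to 7503 in bleomycin lungs and 836 to 885 in vehicle lungs. Spp1 weighs most in the first and second of these, at log2 signals of 10.02 to 10.58 and 11.14 to 11.95. The homoharringtonine arrays lay below all bleomycin arrays for 8 of the 10 genes (7.79% of all probe sets), and Adgre1 and Ms4a7 overlapped. All 10 rose with bleomycin over vehicle, where 3.37% of all probe sets did. Each marker with a name had been listed as changed by the authors in some comparison. The counts of markers therefore describe genes already chosen for a change, and nothing is read from them. For homoharringtonine against bleomycin 0 of the 10 passed the limma test (0.0943% of all probe sets), 8 were under an unadjusted p of 0.05 (11.1% of all probe sets), and the differences had a median of -0.81, where the 3 proliferation genes had -0.01. For fibroblasts (5 of 8 named) the sum was 1875 to 2531 with homoharringtonine, 2959 to 4488 with bleomycin and 1238 to 1397 with vehicle. The members did not all go 1 way. Col1a1, Col1a2, Col3a1 and Acta2 rose with bleomycin over vehicle, while the lineage factor Tcf21 fell (log2 difference -1.38, limma adjusted p = 0.00699). Tcf21 lay at 6.67 to 6.98 with homoharringtonine, 5.597 to 6.31 with bleomycin and 7.21 to 7.70 with vehicle. For neutrophils (5 of 7) it was 123 to 148 with homoharringtonine, 197 to 790 with bleomycin and 107 to 166 with vehicle. For type 2 alveolar epithelium (6 of 8) it was 5790 to 8542 with homoharringtonine, 3156 to 4925 with bleomycin and 8664 to 9105 with vehicle. Vascular endothelium (7 of 7) had 3489 to 4807 with homoharringtonine, 2509 to 2912 with bleomycin and 6376 to 6561 with vehicle. For B cells (4 of 5) it was 133 to 162 with homoharringtonine, 79.7 to 96.8 with bleomycin and 260 to 295 with vehicle. The plasma cell gene Jchain (1 of 5) had 143 to 374 with homoharringtonine, 17.8 to 107 with bleomycin and 46.6 to 57.5 with vehicle. T cell and erythroid markers carried no name and were not analysed. Which cells carried the Mki67, Top2a and Cdk1 signal, and the part of cell composition in it, was not tested.

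The lists of alveolar macrophages (4 of 10 named), NK cells (3 of 4) and type 1 epithelium (1 of 6) had sums of 1007 to 3164, 44.0 to 54.97 and 414 to 568 with homoharringtonine. With bleomycin these were 3016 to 3433, 30.3 to 35.7 and 147 to 265, and with vehicle 1764 to 2468, 97.8 to 171 and 867 to 908. The alveolar macrophage sum was mostly Chil3, and its members went opposite ways. With bleomycin over vehicle Marco rose (log2 difference 1.75, limma adjusted p = 0.00554), Ear1 and Krt79 fell (-2.23 and -1.43, limma adjusted p = 0.00512 and 0.0185), and Chil3 differed by 0.96 with a limma adjusted p of 0.178. Homoharringtonine replicate 2, the lowest array of its group for the 3 proliferation genes, had the lowest alveolar macrophage sum, at 1007 against 2168 and 3164 in replicates 1 and 3. It was the lowest for Chil3, Ear1 and Marco, and the highest for Krt79, at 5.06 against 5.00 and 4.17. It also had the lowest sums of its group for monocyte-derived macrophages, at 2416, fibroblasts, at 1875, and Jchain, at 143. Its B cell and NK cell sums were the highest of its group, at 162 and 54.97. Bleomycin replicate 1 had the lowest neutrophil sum of its group, at 197 against 575 and 790. Its B cell sum was also the lowest, at 79.7, and its NK cell sum the highest, at 35.7. The alveolar macrophage, monocyte-derived macrophage, fibroblast, Jchain and neutrophil sums went otherwise in the other group. Bleomycin replicate 3, the highest of its group for Top2a and Cdk1, had the lowest alveolar macrophage sum, at 3016. It was also the lowest for monocyte-derived macrophages, fibroblasts and Jchain, at 4709, 2959 and 17.8. Homoharringtonine replicate 1, the highest of its group for all 3 genes, had the lowest neutrophil sum, at 123. A link between these sums and the 3 genes was not tested.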

How the data were processed

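Lung RNA was hybridised to 9 Affymetrix arrays. The submitters' processing notes name R 3.5.1 and Affymetrix Power Tools, and no source used here names the normalization. The deposited value table holds log2 signals, and array medians and quartiles nearly coincide, so the arrays share a scale. The deposited comparison tables give, per the file headers, a signed fold (treated here as a score) and adjusted p-values of the LPE test, and the deposited pathway tables give q-values (FDR). Of 14904 listed log2 values 0 differed from the value table by over 1e-06.

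A model of group means was fitted with limma 3.58.1 in R 4.3.3 to all 41345 probe sets and 9 arrays (6 residual degrees of freedom), with eBayes, 2-sided tests, Benjamini-Hochberg adjustment within a comparison and a threshold of 0.05. The fit was tested on simulated data. Genes with several named probe sets were represented by the brightest. Correlations were computed in Python 3.11.15. All named members of the cell cycle lists are given, and 5 genes per measure of likeness. The members and lists were chosen with earlier results of these data known. Alternatives were the 2-group fit, array weights, a robust prior with a trend, median centring, quantile normalization, removal of dim probe sets, listed probe sets only, a replicate block and each array left out.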

Additional observations from a re-analysis of the deposited data

How the results depend on the processing

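The bleomycin-against-vehicle differences of Mki67, Top2a and Cdk1 kept their direction and call under all 8 alternatives that kept every array of the groups compared. These log2 differences were 1.03 to 1.07, 0.88 to 0.92 and 1.21 to 1.25. With 1 array left out they ran from 0.89 to 1.19, 0.78 to 0.99 and 1.05 to 1.41, and remained called in 3, 1 and 1 of 6 fits. For homoharringtonine against bleomycin no alternative gave a call. The Mki67 difference was 0.02 (0.0232) after quantile normalization. With 1 array left out it ran from -0.17 to 0.16, Top2a from 0.31 to 0.61 and Cdk1 from -0.29 to 0.17. For homoharringtonine against vehicle the values with 1 array left out ran from 0.89 to 1.20, 1.20 to 1.495 and 0.97 to 1.38, and Top2a was called in 1 of 6. Testing only the probe sets in the authors' tables, far fewer and already chosen, called Mki67 (1.03, limma adjusted p = 0.00663) and Cdk1 (1.12, limma adjusted p = 0.0107) in that comparison. Top2a (1.30) was not called in the 2-group fit (limma adjusted p = 0.0594) or with the replicate number as a block (limma adjusted p = 0.0723). Same-numbered arrays correlated from -0.14 to 0.09 in their deviations from group means, so no pairing by number was seen. With 3 arrays per group this cannot show that the numbers carry no pairing. Each gene had 1 named probe set, so the average over probe sets was not run.

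Counts of called probe sets moved more. For bleomycin against vehicle 3218 were called, 2055 among listed probe sets only, and 1136 to 3396 with 1 array left out. For homoharringtonine against bleomycin 39 were called, 0 in the 2-group fit and 0 with the replicate block (3817 and 4410 at an unadjusted p under 0.05 by limma), 16 with array weights, 69 above the lower quartile of signal, 724 among listed probe sets and 0 to 181 with 1 array left out. For homoharringtonine against vehicle 209 were called, 385 with array weights, 358 above the lower quartile, 1131 among listed probe sets, 22 with the replicate block and 7 to 122 with 1 array left out. The causes were not tested. The effect of the dim Cdk1 signal in vehicle lungs on its fold was not tested.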
